A study of Mus musculus with 11 samples.

Results

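Glucose and sugar transporters were examined by bulk RNA-seq of 11 liver samples. The donors were female mice whose ovaries had been removed and which ate a high-fat diet. The set held 9 genes of the 36788 rows in the deposited table: Slc2a1, Slc2a2, Slc2a3, Slc2a4, Slc2a5, Slc2a8, Slc2a9, Slc2a10 and Slc45a3. They were chosen by gene name, with the FSH-against-saline differences of these same livers already known, so their values in that contrast are a description and carry no p-value. One group of animals received follicle-stimulating hormone (FSH, n = 5, labelled 1, 2, 3, 4 and 6) and the other received saline (n = 6, labelled 1 to 6). All were labelled wild-type C57BL/6 females over 12 weeks of age, while the study's methods describe its mice as having a mixed background. The comparison addressed what FSH does to the liver once ovarian hormones are removed. The labels do not say whether each library came from a separate mouse, so the errors and p-values given here measure the spread between these samples only. Throughout, a liver means a library, and n counts libraries.

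Sugars cross membranes by way of carriers that only let them run down their gradient (the GLUT proteins, encoded by the SLC2A genes) or by carriers that couple them to sodium ions or protons. Class I GLUTs carry glucose. GLUT2, from Slc2a2, is the main hepatocyte form and works in both directions, so that the liver can take up glucose after a meal and release it in fasting. GLUT4, from Slc2a4, is the insulin-regulated carrier of muscle and fat, and GLUT5, from Slc2a5, carries fructose.

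Each library held between 10801891 and 19909327 reads, with a median of 15482793 in the FSH group and 12593808.5 in the saline group. Expression was given as CPM, a gene's reads scaled to a library total of 1000000. Hepatocyte markers (Alb, Ttr, Apoa1, Cps1, Tat, Serpina1a and Cyp2e1) summed to between 100768 and 119177 CPM in the FSH livers and to between 97586 and 122954 CPM in the saline livers, so every library carried the labelled tissue. Differences between groups were fitted with limma on log2(CPM + 0.5) over the 12733 genes that averaged 0.5 CPM or more. On this scale the fold change of a gene with few reads is understated. A gene was past both thresholds when its Benjamini-Hochberg adjusted p was under 0.05 and its absolute log2 fold change was over 1, the thresholds the study used, and genes past the adjusted p alone, whatever their fold change, are counted beside them.

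Of the 9 transporters, 7 passed the expression filter. FSH livers had more Slc2a4, Slc2a5, Slc2a2 and Slc2a9 RNA and less Slc45a3 RNA than saline livers. Slc2a4 and Slc2a5 (2 genes) were past both thresholds in the higher direction, where 0.887% of all tested genes were, and Slc45a3 (1 gene) in the lower direction, where 0.942% were. At the adjusted p alone, 4 transporters were higher and 1 was lower, against 6.19% and 4.41% of all tested genes. No FSH liver overlapped the saline range for 3 transporters above it (Slc2a2, Slc2a4 and Slc2a5) and 1 below it (Slc45a3), against 3.95% and 2.72% of tested genes. These counts describe how the set was chosen and nothing is read from them. The percentages at the adjusted p alone rest on 1350 genes, a number that fell to 803 without FSH replicate 1.

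**Figure D1:**
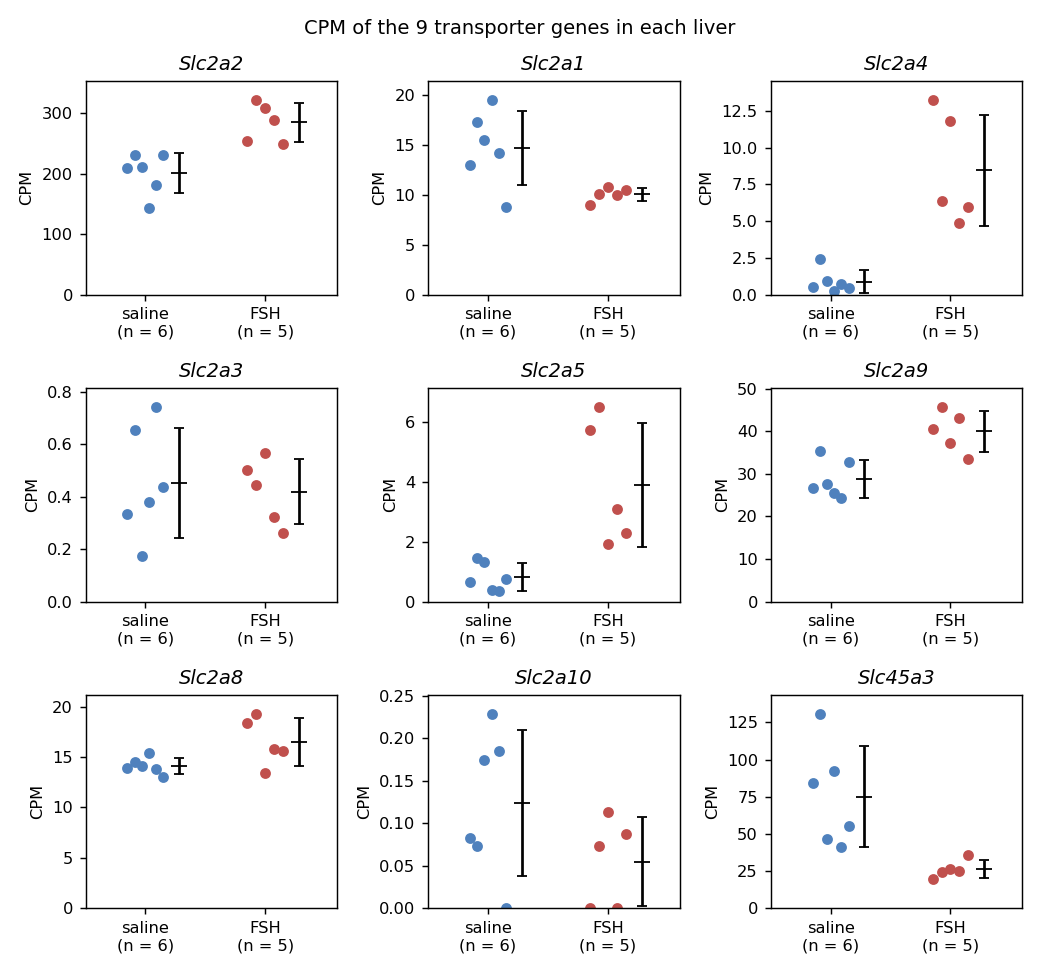
Each panel plots one transporter gene, with CPM on a linear axis from 0, a point for each liver (blue, saline, n = 6; red, FSH, n = 5) and the group mean with its SD beside the points. The FSH points lie wholly above the saline points for Slc2a2, Slc2a4 and Slc2a5 and wholly below them for Slc45a3. They overlap for Slc2a1, Slc2a3, Slc2a8, Slc2a9 and Slc2a10.

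Slc2a2 (ENSMUSG00000027690, chr3:28697903-28731359, plus strand, GRCm38) was the most abundant of the set. In the FSH livers its level was 255, 321, 309, 289 and 249.7 CPM, and in the saline livers it was 209, 231, 211, 144, 182 and 231 CPM. The lowest FSH liver stood above the highest saline liver. The FSH mean was 285 ± 31.8 CPM (SD, n = 5) and the saline mean was 201.3 ± 33.5 CPM (SD, n = 6), a log2 difference of 0.51 (SE 0.12), which is under the study's limit on fold change. An annotated gene on the other strand, 1700112D23Rik, overlaps Slc2a2, Gm12867 and Gm12868 overlap Slc2a1 in the same way, and whether strand was used in counting is not given in the sources used here.

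Slc2a9 (ENSMUSG00000005107, chr5:38349273-38503143, minus strand) encodes GLUT9, a class II carrier best known for moving urate into hepatocytes, where mice break it down. Its level was 40.5, 45.7, 37.2, 43.1 and 33.4 CPM in the FSH livers. In the saline livers it was 26.6, 35.4, 27.7, 25.5, 24.4 and 32.9 CPM. FSH 6, the lowest treated liver, lay within the saline range, below saline 2, and the other FSH livers were above all saline livers. The means were 39.98 ± 4.85 CPM (SD, n = 5) and 28.8 ± 4.39 CPM (SD, n = 6), a log2 difference of 0.47 (SE 0.11), close in size to that of Slc2a2. Within groups the levels of these 2 genes went together over the 11 livers (Pearson r = 0.69 on the log2 scale after each group mean was subtracted, as a description). Of the 21 pairs among the 7 genes, the highest r was that of Slc2a5 and Slc2a9, at 0.71, and the lowest that of Slc2a1 and Slc2a2, at -0.45.

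RefSeq promoter windows of the GRCm38.p6 build were found for 7 of the 9 genes and not for Slc2a3 or Slc2a4. The 250 bases upstream of each start were searched on both strands for 6 short motifs. The nuclear receptor half-site AGGTCA was in 3 of the 8 member windows (Slc45a3 has 2 starts), against 14.0% of all 32851 promoters, and the GC box GGGCGG was in 4 of them, against 32.7%. TATAAA was in 1 window, against 12.4% of promoters. The E-box CACGTG, the D-box TTATGTAA and the glucocorticoid half-site AGAACA were in 0 of the 8 windows, against 6.02%, 0.819% and 16.1% of promoters. Such matches describe letters and are not binding sites. The windows of Slc2a2 and Slc2a9 are shown because both genes were higher with FSH by a similar amount and both windows hold the half-site, which is in capitals (in Slc2a9 it reads on the other strand, TGACCT, and occurs at 2 places). The third window with the half-site belongs to Slc45a3, which was lower with FSH, and the window of Slc2a5, which was higher, has none. The Slc2a2 window is chr3:28697653-28697902 on the plus strand, and the Slc2a9 window is chr5:38483386-38483635 on the minus strand, inside the gene and outside annotated exons. Slc2a9 has 12 annotated transcripts, and counts per gene do not say which start was used. Both windows are printed 5′ to 3′ on the gene's strand.
Slc2a2: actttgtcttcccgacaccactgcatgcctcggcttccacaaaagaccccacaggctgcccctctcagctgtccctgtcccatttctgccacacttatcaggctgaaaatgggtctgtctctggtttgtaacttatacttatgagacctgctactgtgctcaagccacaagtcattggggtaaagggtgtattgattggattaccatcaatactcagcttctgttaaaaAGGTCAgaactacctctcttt
Slc2a9: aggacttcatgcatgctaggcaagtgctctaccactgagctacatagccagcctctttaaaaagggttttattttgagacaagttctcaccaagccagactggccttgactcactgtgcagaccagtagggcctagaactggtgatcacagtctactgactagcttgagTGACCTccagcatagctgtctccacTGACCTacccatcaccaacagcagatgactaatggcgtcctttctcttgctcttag

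Slc2a4 (ENSMUSG00000018566, chr11:69942539-69948188, minus strand) had the largest log2 difference of the set. The FSH livers had 13.2, 6.34, 11.8, 4.91 and 5.96 CPM, from 68 to 263 reads a library. The saline livers had 0.498, 2.40, 0.962, 0.228, 0.741 and 0.435 CPM, from 3 to 33 reads. Every FSH liver was thus above every saline liver, and among the saline livers number 2 stood well above the others. The means were 8.45 ± 3.79 CPM (SD, n = 5) and 0.877 ± 0.788 CPM (SD, n = 6), a ratio of means of 9.63, or 14.8 without saline replicate 2. The fitted log2 difference was 2.75 (SE 0.33), or 3.0 without saline replicate 2.

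Because GLUT4 is the carrier of fat and muscle, markers of both tissues were read in the same libraries. Of the adipocyte list, Lep and Retn had 0 reads in all 11 libraries, and Adipoq and Plin1, which encode adiponectin and perilipin 1, had at most 1 and 2 reads in any library. Cfd (adipsin) reached at most 6 reads. The other 2 genes, Cidec and Car3, are also made by hepatocytes. With them, 2 of the 7 listed genes were tested. The summed level, nearly all of it Car3, ranged from 1203 to 1952 CPM with FSH and from 1560 to 3727 CPM with saline. Car3 was lower with FSH, with a log2 difference of -0.69 (SE 0.20, limma adjusted p = 0.0366). Of the skeletal muscle list, Acta1, Myh4 and Pvalb had 0 reads in all 11 libraries, Ckm and Tnnt3 had at most 1, and only Mylpf was tested. The 6 muscle genes together summed to between 0.295 and 0.906 CPM with FSH and to between 0.332 and 0.700 CPM with saline. In bulk tissue, more cells of a type and more RNA per cell cannot be told apart.

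**Figure D2:**
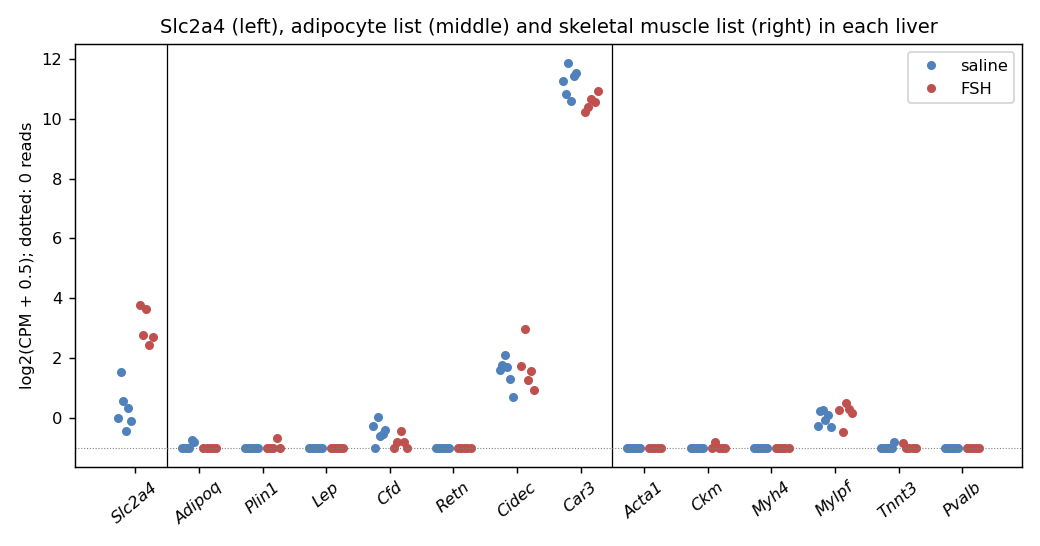
The vertical axis is log2(CPM + 0.5), one point for each liver (blue, saline, n = 6; red, FSH, n = 5), for Slc2a4, the 7 adipocyte genes and the 6 skeletal muscle genes; the dotted line marks 0 reads. Slc2a4 is higher in all FSH livers, whereas Adipoq, Plin1, Lep, Retn, Acta1, Ckm, Myh4, Tnnt3 and Pvalb lie at or near 0 reads in both groups.

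Slc2a1 (ENSMUSG00000028645, chr4:119108711-119137983, plus strand) encodes GLUT1, a broadly expressed glucose carrier that is prominent in endothelium. Its level was 9.04, 10.1, 10.8, 10.01 and 10.5 CPM with FSH and 13.03, 17.3, 15.5, 19.5, 14.2 and 8.83 CPM with saline. All FSH livers were below 5 of the saline livers, but saline 6 was the lowest liver of all. The FSH livers were also tighter, at 10.1 ± 0.659 CPM (SD, n = 5) against 14.7 ± 3.68 CPM (SD, n = 6). The log2 difference was -0.49 (SE 0.16), which did not pass the adjusted threshold. Without saline replicate 6 it was -0.62 and passed at the adjusted p alone, as it did with array weights, edgeR (-0.58) and DESeq2 (-0.58). Summed erythroid markers ranged from 464 to 790.5 CPM with FSH and from 425 to 1010 CPM with saline, with 0 of 5 tested genes past the adjusted p and 0 at an unadjusted p under 0.05 with limma, edgeR or DESeq2. Over all tested genes the limma shares were 10.6% and 25.1%, so counts of 0 in so short a list say little. Summed endothelial markers ranged from 147 to 221 CPM and from 172 to 202 CPM, and 1 of 7 genes, Lyve1, was lower with FSH at the adjusted p (log2 difference -0.63, SE 0.14, limma adjusted p = 0.0121). In either direction 10.6% of all tested genes passed the adjusted p in limma, and nothing is read from 1 gene in so short a list. With each of limma, edgeR and DESeq2, 3 of the 7 endothelial genes had an unadjusted p under 0.05, where 25.1% of all tested genes did in limma. The part of blood and endothelial cells in the Slc2a1 and Slc2a4 values was not tested.

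Slc2a3 (ENSMUSG00000003153, chr6:122727809-122801640, minus strand) encodes GLUT3, the high-affinity carrier of neurons and leukocytes, and was hardly present. It overlaps Gm4482 on the same strand, and Slc2a1 overlaps the microRNA gene Mir1957a on the same strand, neither of which is a row of the table used here. The FSH livers had 0.502, 0.443, 0.566, 0.323 and 0.263 CPM and the saline livers 0.332, 0.655, 0.175, 0.380, 0.741 and 0.435 CPM, from 2 to 10 reads a library. The groups overlapped almost wholly, and the gene was under the filter. Neutrophil markers summed to between 0.526 and 2.78 CPM with FSH and to between 0.747 and 3.70 CPM with saline.

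Slc2a5 (ENSMUSG00000028976, chr4:150119283-150144169, plus strand), the fructose carrier, had 5.73, 6.49, 1.93, 3.10 and 2.28 CPM in the FSH livers, from 26 to 114 reads. The saline livers had 0.664, 1.45, 1.31, 0.380, 0.370 and 0.746 CPM, from 4 to 20 reads. The groups did not overlap, though FSH 3 and saline 2 stood close to each other. Means were 3.90 ± 2.07 CPM (SD, n = 5) and 0.821 ± 0.463 CPM (SD, n = 6), a ratio of 4.75, with a log2 difference of 1.68 (SE 0.30). On the recovered reads, without the pseudocount, the log2 difference was 2.21 with edgeR and 2.22 with DESeq2. The FSH livers with the most Slc2a5, numbers 1 and 2, were not the pair with the most Slc2a4, which were numbers 1 and 3. Slc2a5 is also known from cells of the macrophage lineage. Kupffer cell and macrophage markers summed to between 120 and 323 CPM with FSH and to between 207 and 378 CPM with saline, with 0 of 7 genes past the adjusted p and 3 at an unadjusted p under 0.05 in limma, 0 and 4 in edgeR, and 2 (Clec4f and C1qa, both lower with FSH) and 4 in DESeq2. Over all tested genes 10.6% passed the adjusted p and 25.1% had an unadjusted p under 0.05 in limma. The part of these cells in the Slc2a5 values was not tested.

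The class III members sit mostly on membranes inside the cell. Slc2a8 (GLUT8; ENSMUSG00000026791, chr2:32972990-32982083, minus strand) had 18.3, 19.3, 13.4, 15.8 and 15.6 CPM with FSH and 13.9, 14.5, 14.1, 15.4, 13.8 and 13 CPM with saline. The saline livers were nearly alike, and FSH 3 lay among them. Means were 16.5 ± 2.35 CPM (SD, n = 5) and 14.1 ± 0.789 CPM (SD, n = 6), a log2 difference of 0.21 (SE 0.10) that did not pass the adjusted threshold in any fit run. Slc2a10 (GLUT10; ENSMUSG00000027661, chr2:165503787-165519917, plus strand) had at most 3 reads in each of the 11 libraries, with 0 to 0.113 CPM in the FSH livers and 0 to 0.228 CPM in the saline livers. A fold change is not given for it, since 3 reads correspond to 0.151 to 0.278 CPM at these depths.

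Slc45a3 (ENSMUSG00000026435, chr1:131962967-131982969, plus strand) encodes prostein, a protein best known from the prostate and a member of a family of proton-coupled sugar carriers. The FSH livers had 19.8, 24.5, 26.4, 25.2 and 36.0 CPM. The saline livers had 84.0, 131, 46.4, 92.4, 41.6 and 55.7 CPM. All FSH livers were lower than all saline livers, with FSH 6 and saline 5 nearest to each other. The saline livers spread widely, at 75.1 ± 34.0 CPM (SD, n = 6), while the FSH livers stood at 26.4 ± 5.94 CPM (SD, n = 5). The saline mean was 2.85 times the FSH mean, and the log2 difference was -1.40 (SE 0.25), or -1.22 without saline replicate 2, the highest liver. An annotated gene on the same strand, Gm29103, overlaps Slc45a3 and is not a row of the table used here, so how reads shared between them were assigned could not be seen.

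RefSeq gives Slc45a3 2 starts, and the windows before both are shown because it was the one transporter lower past both thresholds and the windows differ in make-up. The first, chr1:131962665-131962914, lies outside annotated genes, is 66.8% G and C and holds 2 GC boxes. The second, chr1:131970359-131970608, lies inside the gene, between exons, is 49.2% G and C and holds TATAAA and the half-site AGGTCA. These matches are in capitals, and both windows are on the plus strand.
Slc45a3 first start: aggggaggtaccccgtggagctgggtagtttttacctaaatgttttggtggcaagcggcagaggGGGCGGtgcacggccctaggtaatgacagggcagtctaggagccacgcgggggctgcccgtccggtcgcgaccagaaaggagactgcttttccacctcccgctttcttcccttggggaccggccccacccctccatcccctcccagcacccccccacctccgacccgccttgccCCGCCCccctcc
Slc45a3 second start: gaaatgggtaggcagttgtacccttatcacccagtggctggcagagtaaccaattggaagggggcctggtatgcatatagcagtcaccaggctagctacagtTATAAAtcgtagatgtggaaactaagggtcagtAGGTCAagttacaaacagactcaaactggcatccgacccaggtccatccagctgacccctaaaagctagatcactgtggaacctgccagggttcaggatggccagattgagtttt
The counts are per gene, so the values do not say which start was used.

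**Figure D3:**
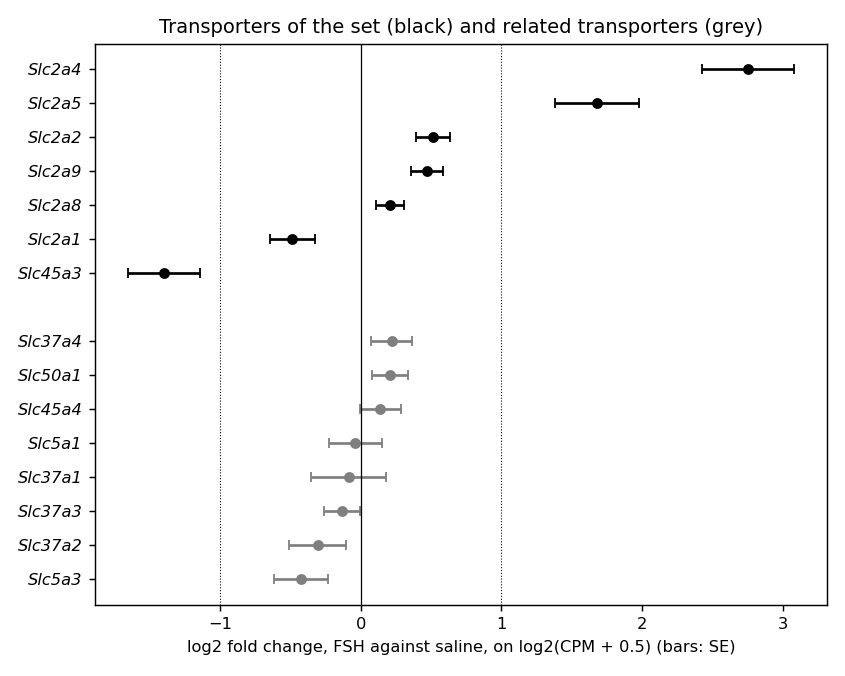
Points are log2 differences, FSH against saline, on log2(CPM + 0.5), and bars are standard errors, for the 7 transporters that passed the filter (black) and 8 related transporters (grey); dotted lines mark the limits at -1 and 1. Slc2a4 and Slc2a5 lie right of the upper limit and Slc45a3 left of the lower one, and all 8 related genes lie between -0.43 and 0.22.

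Levels of different genes were compared as CPM per kilobase of annotated exon. In the saline livers Slc2a2 came first at 35.0 ± 5.82 CPM per kilobase (SD, n = 6), followed by Slc45a3 at 21.1 ± 9.55, Slc2a9 at 5.66 ± 0.864, Slc2a8 at 4.39 ± 0.246, Slc2a1 at 4.197 ± 1.05, Slc2a4 at 0.252 ± 0.227, Slc2a5 at 0.241 ± 0.136, Slc2a3 at 0.0625 ± 0.0290 and Slc2a10 at 0.0347 ± 0.0241. Neighbors whose ranges over the 6 saline livers overlapped were Slc2a2 and Slc45a3, Slc2a8 and Slc2a1, Slc2a4 and Slc2a5, and Slc2a3 and Slc2a10. The step from Slc2a1 to Slc2a4 was the widest, at 16.6 times.

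In the FSH livers Slc2a2 stood at 49.5 ± 5.53 CPM per kilobase (SD, n = 5), and Slc2a9, at 7.86 ± 0.953, came before Slc45a3, at 7.40 ± 1.67, with overlapping ranges. Slc2a1, at 2.88 ± 0.188, and Slc2a4, at 2.43 ± 1.09, had spans that overlapped, with a ratio of means of 1.18. The means were close, but each FSH liver had Slc2a4 either above or below the range of Slc2a1. Slc2a2 RNA per exon length was 14.5 to 19.4 times that of Slc2a1 in the FSH livers and 4.50 to 15.9 times in the saline livers, with saline 6 alone reaching the FSH values.

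**Figure D4:**
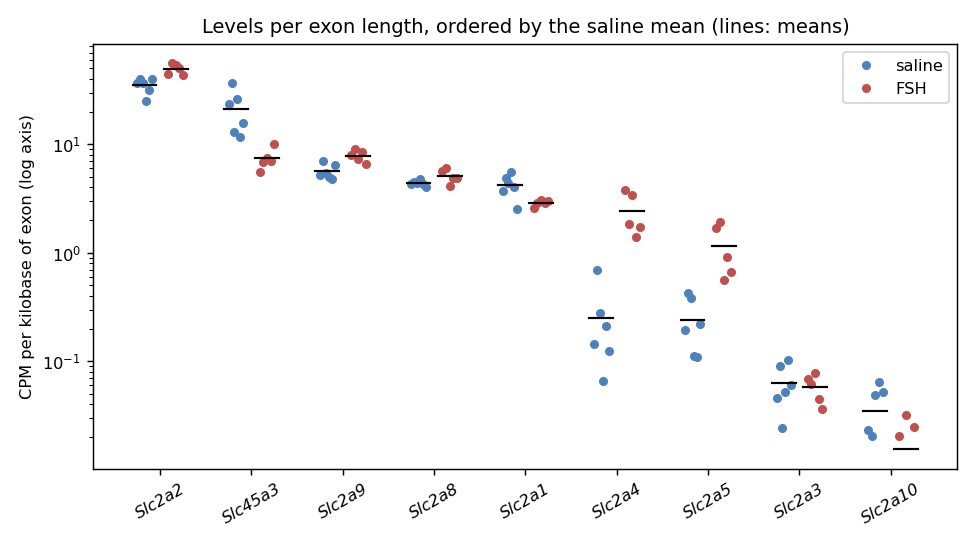
The vertical axis is CPM per kilobase of exon on a log scale, with the 9 genes ordered by their saline mean, a point for each liver (blue, saline; red, FSH) and a line at each group mean; livers at 0 have no point. Slc2a4 lies at the level of Slc2a5 in saline livers and near that of Slc2a1 in FSH livers, where Slc45a3 lies at the level of Slc2a9.

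Genes whose levels followed Slc45a3 and Slc2a2 from liver to liver were looked for among 12732 tested genes, over the 11 livers, with group means subtracted (Pearson r on the log2 scale, a description only). Predicted genes without a symbol of their own were passed over, so the genes named need not be the most extreme. The ends of 12732 correlations over 11 livers are extreme by selection, and nothing is read from their size. Closest to Slc45a3 were Lpin1, a phosphatidate phosphatase of triglyceride synthesis (r = 0.96), Zbtb40, a zinc finger gene (r = 0.96), and Cyp2b10, a cytochrome P450 induced through the receptor CAR (r = 0.95). The lowest r was that of Pfkfb4, a fructose 2,6-bisphosphate enzyme, at -0.95. Pfkfb4 was near the filter, at 0.776 CPM with FSH and 0.636 CPM with saline. Of these genes Cyp2b10 was lower with FSH, at 12.5 against 49.6 CPM (log2 difference -1.79, SE 0.33, limma adjusted p = 0.00285). Lpin1 averaged 126 CPM with FSH and 283 CPM with saline, a difference that did not pass (limma adjusted p = 0.210). Closest to Slc2a2 were Tanc1 (r = 0.97), Irak1bp1 (r = 0.97) and Cog6 (r = 0.96), and the lowest was Rabep2 (r = -0.90). Irak1bp1 was higher with FSH, at 2.05 against 1.04 CPM (log2 difference 0.74, SE 0.15, limma adjusted p = 0.00466).

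Other sugar transporters were taken as a list of 20 genes: the remaining SLC2A and SLC45A genes, sodium-coupled SLC5A carriers, the SWEET carrier Slc50a1 and the sugar phosphate exchangers of SLC37A. Of these, 12 were under the filter, with no single value above 0.612 CPM, and 4 of the 12 had 0 reads in every library. Among the 8 tested, 0 passed the adjusted p with limma, edgeR or DESeq2, and 1 had an unadjusted p under 0.05 with each tool. Over all tested genes the limma shares were 10.6% and 25.1%, so these counts are near the background. That gene was Slc5a3, the sodium-coupled myo-inositol carrier, whose mean was 3.41 ± 1.03 CPM (SD, n = 5) in FSH livers and 4.65 ± 0.896 CPM (SD, n = 6) in saline livers (log2 difference -0.43, SE 0.19, limma adjusted p = 0.176). Slc5a3 overlaps Mrps6 on the same strand, which makes its count uncertain. Slc37a4, the endoplasmic reticulum exchanger that brings glucose 6-phosphate to glucose 6-phosphatase, was the most abundant, at 207 ± 21.2 CPM (SD, n = 5) and 181 ± 40.6 CPM (SD, n = 6) (log2 difference 0.22, SE 0.15). The others gave log2 differences of 0.21 (SE 0.13) for Slc50a1, 0.14 (SE 0.14) for Slc45a4, -0.04 (SE 0.19) for Slc5a1, -0.08 (SE 0.27) for Slc37a1, -0.13 (SE 0.13) for Slc37a3 and -0.31 (SE 0.20) for Slc37a2. The list's median log2 difference was -0.06, beside 0.02 over all tested genes.

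Genes of glucose, fructose and urate handling and of transporter trafficking were read in the same fit, as a list of 38 of which 36 were tested. The list was written with earlier results of these data known, so its counts are a description. Pnp, a listed urate gene, was not analysed here. At the adjusted p alone FSH livers had more RNA for 3 of them and less for 3, against 6.19% and 4.41% of all tested genes, and 0 were past both thresholds with limma, edgeR or DESeq2, while 12 had an unadjusted limma p under 0.05, against 25.1% of all tested genes. The list's median log2 difference was 0.04, beside 0.02 over all tested genes. Among glucose phosphorylation and release genes, 1 of 7 passed the adjusted p. This was Gckr, a regulator of glucose phosphorylation, at 135 ± 10.1 CPM in FSH livers (SD, n = 5) and 96.3 ± 8.03 CPM in saline livers (SD, n = 6) (log2 difference 0.49, SE 0.08, limma adjusted p = 0.00166). Among glucose-sensing factors and arrestins 2 of 8 passed the adjusted p. Arrdc4, an arrestin, was higher at 17.5 against 11.6 CPM (log2 difference 0.58, SE 0.11, limma adjusted p = 0.00442). Hnf4a, a nuclear receptor of hepatocyte genes, was lower at 355 against 486 CPM (log2 difference -0.44, SE 0.13, limma adjusted p = 0.0369). Hnf4a no longer passed without FSH replicate 1, 2, 3 or 4, or saline replicate 2, 4 or 6, each taken out alone, with adjusted p from 0.0683 to 0.1001.

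Of 6 fructose and polyol genes, read beside the fructose carrier Slc2a5, 0 passed the adjusted p and 0 had an unadjusted p under 0.05 with limma, edgeR or DESeq2. With 10.6% and 25.1% of all tested genes doing so in limma, counts of 0 in lists this short say little. The smallest p-values belonged to Sord, which makes fructose from sorbitol (log2 difference 0.14, SE 0.08, limma adjusted p = 0.327), and to Khk, the ketohexokinase that phosphorylates fructose (log2 difference 0.26, SE 0.17, limma adjusted p = 0.372). The same holds for GLUT4 vesicle trafficking, read beside Slc2a4, where 0 of 7 genes passed the adjusted p and 0 had an unadjusted p under 0.05 with limma, edgeR or DESeq2. Tbc1d1, a Rab-GTPase activating protein, gave -0.25 (SE 0.15, limma adjusted p = 0.332) and Rhoq, a small GTPase of the insulin pathway, gave 0.15 (SE 0.14, limma adjusted p = 0.552).

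Beside the urate carrier Slc2a9, 3 of 8 urate genes passed the adjusted p, against 10.6% of all tested genes, and 0 were past both thresholds. An unadjusted p under 0.05 was found for 7 of the 8 with limma and for 6 with edgeR and with DESeq2, against 25.1% of all tested genes in limma. The list was written with earlier results of these data known, so nothing is read from these counts. Uox, urate oxidase, which degrades urate in mice, averaged 1931 ± 267 CPM in FSH livers (SD, n = 5) and 1047 ± 117 CPM in saline livers (SD, n = 6), with no overlap (log2 difference 0.88, SE 0.11, limma adjusted p = 0.00017). Slc17a1 and Slc17a3, which encode anion carriers that take part in urate secretion, were lower with FSH, again with no overlap. Slc17a3 stood at 38.7 against 51.3 CPM (log2 difference -0.40, SE 0.08, limma adjusted p = 0.00543). Slc17a1 stood at 11.2 against 16.0 CPM (log2 difference -0.52, SE 0.13, limma adjusted p = 0.0228). Slc17a1 no longer passed without FSH replicate 1, 2 or 4, with adjusted p from 0.0533 to 0.0633. Abcg2, another carrier on the list, went the other way, at 42.1 against 34.3 CPM with overlap (log2 difference 0.29, SE 0.10, limma adjusted p = 0.0838). Of the 8 urate genes, 5 had a positive log2 difference and 3 a negative one. What these values mean for urate secretion was not tested.

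**Figure D5:**
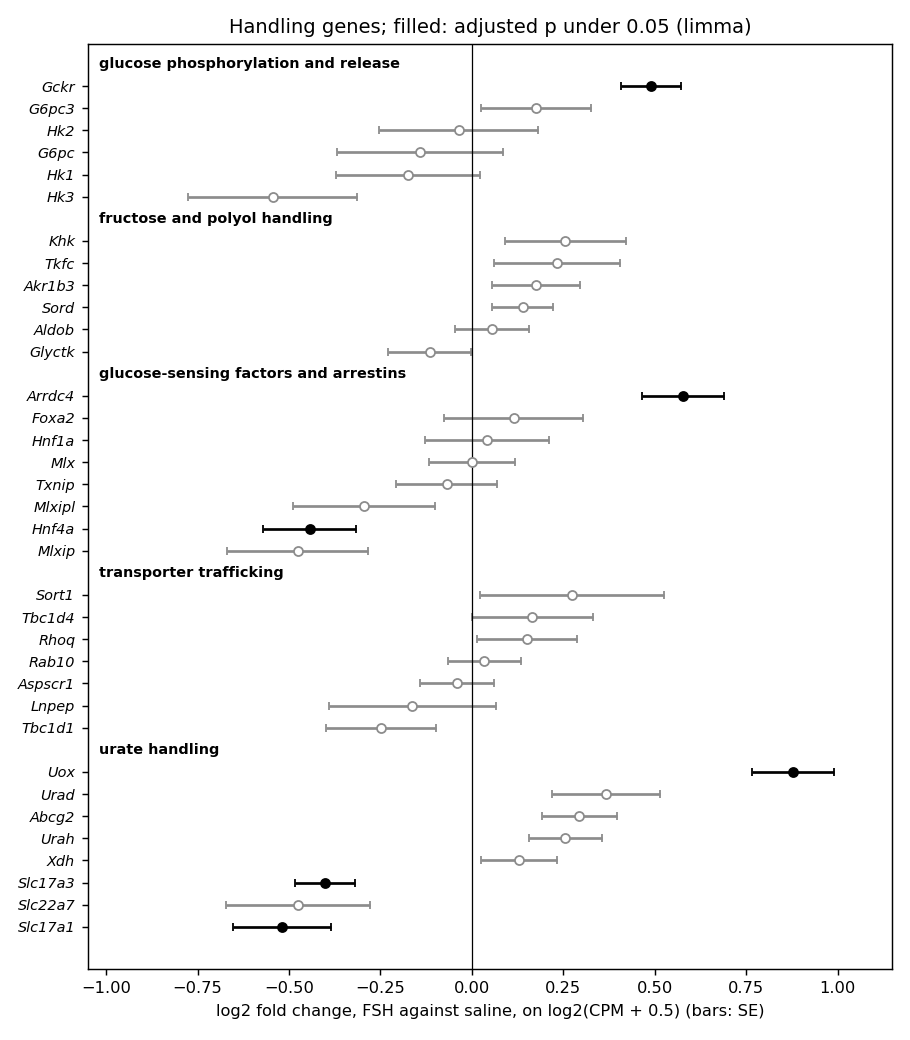
Points are log2 differences, FSH against saline, on log2(CPM + 0.5), and bars are standard errors, for tested genes of the handling list in 5 subgroups; filled points have a limma adjusted p under 0.05. Gckr, Arrdc4 and Uox are filled on the right, Hnf4a, Slc17a3 and Slc17a1 on the left, and no fructose or trafficking gene is filled.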

How the data were processed

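The authors sequenced RNA of 11 liver samples of ovariectomized female mice from NEBNext Ultra libraries as paired reads. Per the labels, whole liver was digested with papain before RNA was extracted. The submitters' processing notes name FastQC 0.11.2, Trim Galore 0.3.3, cutadapt, STAR, RSEM and the mm10 build; the annotation release and strand setting are not given in the sources used here. The authors deposited CPM per Ensembl gene, scaled to each library's total. All values were whole reads once multiplied by the depth (100% within 0.1 of a read), so reads were recovered. Of 36788 rows, 35555 were named through GENCODE M21, which also gave coordinates and exon lengths. 

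Genes averaging 0.5 CPM or more were fitted with limma 3.58.1 in R 4.3.3 (empirical Bayes with an intensity trend, Benjamini-Hochberg adjustment) and checked against edgeR 4.0.16 and DESeq2 1.42.0 on the recovered reads. The script was tested on simulated data. Alternatives were other pseudocounts, filters and scalings, array weights, a replicate block and leaving out each library. Members and lists were chosen with earlier results of these data known. Beside the members, the text names every related transporter that passed the filter. It also names, from each handling subgroup, the genes with an adjusted p under 0.05 or else the 2 with the smallest p. Genes closest to Slc45a3 and Slc2a2 were the 3 with the highest r and the 1 with the lowest among genes with a symbol of their own. The markers and Abcg2 were named outside that rule, and 1 tested handling gene is left out of the text and the plot. No pair of libraries agreed within sampling noise. At these depths 3 reads correspond to 0.151 to 0.278 CPM, which limits what can be said of the lowest genes.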

Additional observations from a re-analysis of the deposited data

Results flagged for a closer look

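The 9 transporters, the 8 related genes and the 10 named handling genes gave 54 groups of livers, of which 2 held a liver far from the rest of its group (Dixon's test at the 95% level). Chance flags about 1 in 20 groups. Slc2a4 stood at 2.40 CPM in saline replicate 2, against 0.228 to 0.962 CPM in the other saline livers. Hnf4a stood at 445 CPM in FSH replicate 6, against 313 to 347 CPM in the other FSH livers.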

How the results depend on the processing

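The transporters were chosen with this contrast of these samples known, so their calls in refits of the same samples describe the fits and add no support. Over 22 alternatives, Slc2a4, Slc2a5 and Slc45a3 were past both thresholds and Slc2a2 and Slc2a9 past the adjusted p in each one. Slc2a1 passed in 4 of the 22 and Slc2a8 in 0. Calls over all genes at both thresholds ranged from 189 to 320. At the adjusted p alone leaving out 1 library gave 803 (without FSH replicate 1) to 1659 (without FSH replicate 6), against 1350, from fewer samples. The log2 difference of Slc2a4 was 3.33 with a pseudocount of 0.1 CPM, and those of Slc2a5 on recovered reads were larger than on the pseudocount scale. The 8 related transporters gave 9 values of turned sign out of 173. Slc5a1 ranged from -0.17 to 0.04 when 1 library was left out (0.0374, 0.0181, 0.0042, 0.0298 and 0.0151 without FSH replicates 1, 3 and 6 and saline replicates 3 and 6), and Slc37a1 from -0.24 to 0.0557 (0.0557 without FSH replicate 6 and 0.0550 without saline replicate 5), with 0.0907 under array weights and 0.0550 with the replicate block. Hnf4a also failed the adjusted p with no filter on low values and with no intensity trend (adjusted p = 0.0694 and 0.0589). The order of the 9 genes by CPM per kilobase in saline livers was the same with the longest transcript, and 7 to 9 genes held their place when 1 liver was left out. Scaling moved the median log2 difference of all genes by at most -0.03.

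Same-numbered FSH and saline livers deviated together with r from -0.07 to 0.36 over the 5 numbers, so the numbers were not taken as pairs. With the replicate block, which drops saline replicate 5, 1210 genes passed the adjusted p and 251 both thresholds, 5 transporters passed the adjusted p and 3 both thresholds, and 0 related transporters passed.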
